A study of Mus musculus with 12 samples.

Results

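The genes described here encode the enzymes of cholesterol synthesis and the proteins that control sterol regulatory element–binding protein 2 (SREBP2), the transcription factor that drives them. They were 28 genes taken from a list of names, out of 43278 gene symbols measured by RNA sequencing in mouse thioglycolate-elicited peritoneal macrophages (PMφs). All 28 were present in the data, 1 of them (Erg28) under an older symbol. Of these, 20 belong to the synthesis route itself, 1 (Ggps1) to a branch of it, 6 are SREBP2 and the proteins that process it, and 1 (Stard4) carries cholesterol. The set held no lipoprotein receptor, so uptake is described only through a separate list of 5 uptake genes.

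Wild-type C57BL/6J mice of both sexes, 8 to 12 weeks old, gave PMφs by lavage 4 days after thioglycolate, and the adherent cells were used after 18 h in culture. Cells of several animals were pooled and each pool was split over 4 groups of 3 libraries, so each library stands for a pool and not for 1 mouse. The groups were untreated control PMφs, PMφs given 100 µg/ml human medium oxidized LDL (oxLDL) for 24 h, PMφs given 10 ng/ml ultrapure LPS, and PMφs given oxLDL and then LPS (oxLDL+LPS). All groups shared the same thioglycolate stimulus, and how long LPS was applied before these libraries were made is not given in the sources used here.

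Cholesterol is built from acetyl-CoA through mevalonate and isoprenoid diphosphates to squalene, which is closed to lanosterol and then trimmed and reduced to cholesterol. SREBP2 is made as a membrane protein of the endoplasmic reticulum. When membrane sterols are low, SCAP escorts it to the Golgi, where the proteases encoded by Mbtps1 and Mbtps2 release its active part, and when sterols are high, INSIG proteins hold it back. Macrophages that take up modified LDL receive cholesterol from its lysosomal breakdown, which is the setting of foam cells.

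The values were normalized counts, that is, counts scaled by 1 factor per library and rounded. Their spacing implied between 16725738 and 26177705 counted reads per library. The normalized counts summed to 17152972 to 17709731 in the 6 libraries without LPS and to 22071853 to 26384551 in the 6 with it. Macrophage markers (8 genes) summed to 231967 to 347950 in every library. Of the T cell markers, Cd3d, Cd3e, Cd3g, Trac and Cd8a stayed at or under 3, and Ly6g, Prg2 and Ear6 were at 0 in all 12 libraries. B cell (6 genes) and neutrophil markers (6 genes) summed to 44 to 87 and 2 to 29. With LPS the T cell sum was 116 to 246 against 27 to 30 in control, mainly through Lck, the mast cell sum was 968 to 2011 against 70 to 79, mainly through Hdc, and the eosinophil sum was 105 to 125 against 319 to 386, mainly through Siglecf. With oxLDL alone the eosinophil sum was 184 to 307, also below every control library, and Siglecf was at 258, 303 and 180 against 315, 350 and 383. The part of these 3 genes or their cells in the LPS and oxLDL results was not tested. Mesothelial and fibroblast markers (8 genes, led by Col1a1) summed to between 3779 and 21665 and were lowest in replicate 3 of each group, so they varied between pools more than between treatments. In these bulk samples, fewer cells of a type and less RNA per cell cannot be told apart.

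The labels give replicate numbers but do not name the pools. Libraries with the same number were taken to come from the same pool, from the methods and from correlations between libraries. Each comparison is therefore given without and with the replicate number as a block in the model. Changes are log2 fold changes of the normalized count plus 1 from limma, and a gene was called at a Benjamini-Hochberg adjusted p under 0.1 over all genes tested. Below, "fell" and "rose" are used only for genes called in a named fit. LPS replicate 2 stood apart from LPS replicates 1 and 3 in these genes, and the members whose LPS call or value depended on it are named with the LPS results.

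The promoters are shown first because most members moved together. RefSeq promoter sequence (GRCm38.p6) was matched for 24 of the 28 members, and not for Fdps, Fdft1, Sqle and Stard4. The 250 bases before each start were searched on both strands for the sterol regulatory element core TCACNCCAC, for the NF-Y box CCAAT and for the Sp1 box GGGCGG. The element core was found in 1 of the 24 (Hmgcs1), against 1.22% of all 27025 genes in the table. The NF-Y box was found in 19 of the 24 (79.2%), against 37.5% of all genes and 40.4% of the 9743 genes that had a promoter and enough reads to be tested. The Sp1 box was found in 21 (87.5%), against 35.4% and 63.2%. Of the 16 members with a promoter that fell with oxLDL, 15 held an NF-Y box, as did 4 of the 8 others. These are matches of letters and not measured binding sites, and a missing match does not show that a site is absent.

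The upstream windows of 3 members that share no base with an annotated exon are printed to show such matches in place, with the element core and the NF-Y boxes (CCAAT, or ATTGG on the other strand) in capitals. Hmgcs1 (chr13:119690101-119690350, plus strand) held the element core from position -137 to -129 before the start together with 3 NF-Y boxes. Mvd (chr8:122443423-122443672, minus strand) held 2 NF-Y boxes and fell with oxLDL. Ebp (chrX:8193513-8193762, minus strand) also held 2 and was not called with oxLDL.
Hmgcs1: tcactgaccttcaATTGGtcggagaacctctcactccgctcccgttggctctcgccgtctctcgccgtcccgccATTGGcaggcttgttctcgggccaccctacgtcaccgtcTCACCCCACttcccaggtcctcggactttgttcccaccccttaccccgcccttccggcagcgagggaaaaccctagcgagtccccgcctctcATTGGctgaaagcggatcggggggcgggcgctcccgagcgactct
Mvd: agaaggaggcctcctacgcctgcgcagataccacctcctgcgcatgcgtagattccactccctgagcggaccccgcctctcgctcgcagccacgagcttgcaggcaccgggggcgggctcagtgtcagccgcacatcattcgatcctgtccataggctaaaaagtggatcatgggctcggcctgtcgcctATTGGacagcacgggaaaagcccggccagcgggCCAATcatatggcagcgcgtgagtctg
Ebp: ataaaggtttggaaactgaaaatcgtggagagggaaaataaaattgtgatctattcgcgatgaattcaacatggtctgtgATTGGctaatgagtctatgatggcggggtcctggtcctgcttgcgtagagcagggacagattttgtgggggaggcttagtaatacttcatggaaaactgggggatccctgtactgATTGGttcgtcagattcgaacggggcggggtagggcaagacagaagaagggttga

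In control PMφs the synthesis genes differed widely in level. Per kilobase of exon (GENCODE vM21, all isoforms joined), Hmgcs1, which makes HMG-CoA, stood highest at 508 ± 57.1 (SD, n = 3) normalized counts per kb. Mvd, the mevalonate diphosphate decarboxylase, followed at 464 ± 49.0, Insig1 at 459.6 ± 41.6 and Srebf2 at 434 ± 35.7, and these 4 did not differ beyond their spread. Lowest were Tm7sf2 at 42.8 ± 10.0 and Lbr at 44.8 ± 1.4 per kb, 2 proteins with the same sterol reductase activity, and they did not differ beyond their spread either. The longest joined exon set was that of Lss (10787 bases), which lowers its level per kb (58.2 ± 3.68). The authors counted reads with an older GENCODE release, so the exon lengths behind the counts may differ from those used here.

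Exposure to oxLDL alone addressed how lipid loading acts on the route. In this comparison 26 of the 28 members had a lower mean with oxLDL than in control PMφs, and the median log2 fold change was -0.69, against -0.01 for all 12751 genes tested. In the fit without the block no member was called, as was no gene at all (percent called 0), while 19 members and 381 of all genes had an unadjusted p under 0.05. With the replicate block, 20 members fell and none rose, where 2.92% of all genes tested fell and 1.8% rose. The 2 groups did not overlap for 20 of the 28 members, against 7.7% of all genes.

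The whole mevalonate segment fell with oxLDL when the block was in the fit (7 of 7, median -0.75). Idi1, the isomerase of isopentenyl diphosphate, changed most of all 28. It was at 259, 226 and 268 in the 3 control libraries and at 123, 109 and 76 with oxLDL. Each oxLDL library was below each control library, and the mean level was 40.4% of control (log2 fold change -1.31, SE 0.19 without the block, adjusted p = 0.25 without and 0.00106 with it). Fdps, which builds farnesyl diphosphate, went from 945 to 1277 in control to 411 to 625 with oxLDL (-0.997 on the log2 scale, adjusted p with the block 0.000961). Hmgcs1 was at 2538, 2039 and 2428 in control and at 1545, 1448 and 1179 with oxLDL, which is -0.75 (adjusted p with the block 0.00102). Acat2, the thiolase that opens the route, was at -0.82 and Mvd at -0.69, and the kinases Mvk (-0.48) and Pmvk (-0.49) changed least in this segment.

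The 3 enzymes that make squalene and lanosterol all fell in the blocked fit (median -0.82). Sqle, the squalene epoxidase and a rate-limiting step, had normalized counts of 1653, 1315 and 1517 in control and of 806, 745 and 541 with oxLDL. The groups were well apart, and the log2 fold change was -1.11 (SE 0.16 without the block, adjusted p = 0.25 without and 0.000403 with it). Fdft1, the squalene synthase, changed by -0.82 and Lss, the lanosterol synthase, by -0.71.

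The segment after lanosterol was mixed. With the block 7 of its 10 genes fell (median -0.62). Cyp51, the lanosterol demethylase at its head, was at 1411, 1085 and 1254 in control and at 715, 656 and 393 with oxLDL, a log2 fold change of -1.13 (adjusted p with the block 0.00141). Hsd17b7 (-0.87) and Sc5d (-0.87), Msmo1 (-0.84), Nsdhl (-0.68) and Tm7sf2 (-0.55) fell too. Dhcr7, the reductase that completes one route to cholesterol, passed only narrowly, at -0.20 (adjusted p with the block 0.0931). Not called in either fit were Lbr (-0.13), the scaffold gene Erg28 (-0.17) and the isomerase gene Ebp (-0.15), although every Ebp library with oxLDL (601 to 662) was below every control library (684 to 717).

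Among the control proteins, only Srebf2 and Insig1 fell with oxLDL in the blocked fit. Insig1, the retention protein and itself a gene that SREBP2 drives, was at 1319, 1380 and 1566 in control and at 682, 862 and 567 with oxLDL (-1.03, adjusted p with the block 0.000961). Srebf2 had 3350, 2844 and 3167 in control and 2292, 2108 and 1782 with oxLDL, and all 3 treated libraries were the lower ones (-0.60, adjusted p with the block 0.00106). The log2 fold changes of Scap (0.06), Insig2 (-0.02), Mbtps1 (-0.00) and Mbtps2 (-0.04) were not called in either fit, and the blocked fit gave 95% intervals between -0.15 and 0.17 for these 4. The branch gene Ggps1, which makes geranylgeranyl diphosphate, was at 0.04 and was not called. Stard4 fell, from 661 to 836 in control to 377 to 523 with oxLDL (-0.71, adjusted p with the block 0.0110).

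**Figure D1:**
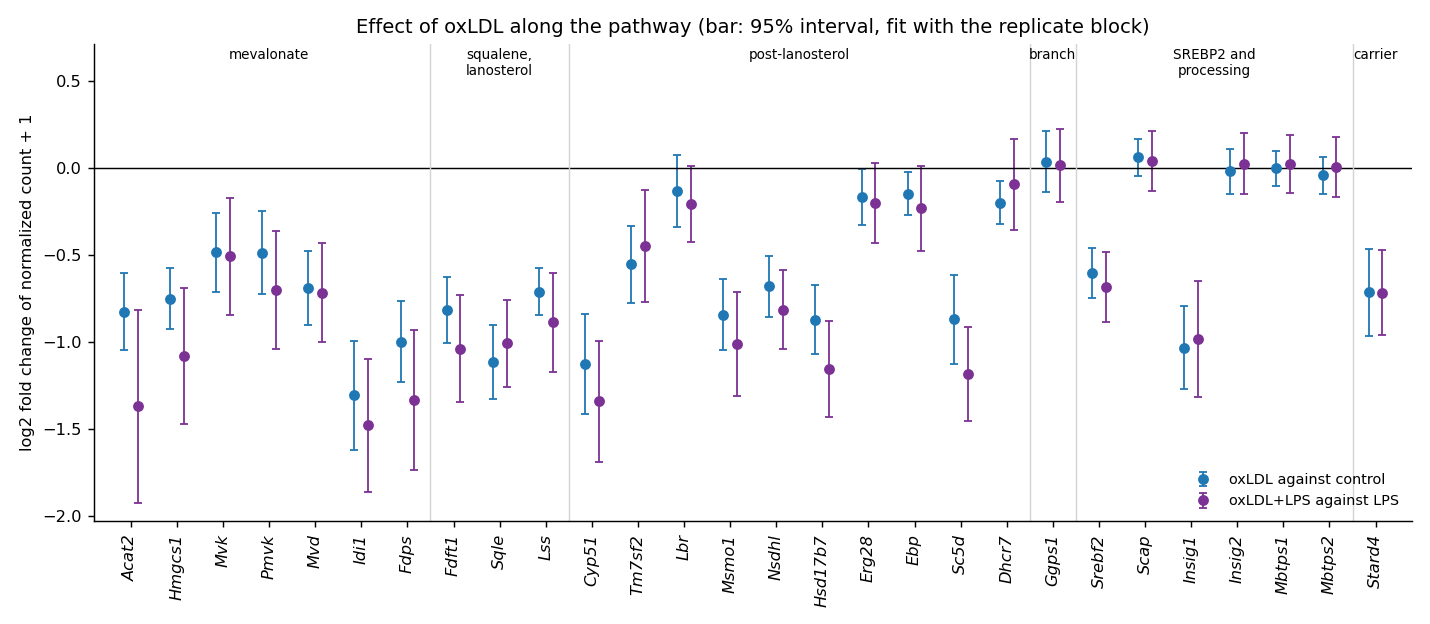
Log2 fold change (y axis) of the 28 genes with oxLDL in pathway order (x axis), without LPS (blue) and with LPS (purple); points are the estimates and bars the 95% intervals of the fit with the replicate block. Idi1 lies lowest in both series (-1.31 and -1.48), while Lbr, Erg28, Ebp, Dhcr7, Ggps1 and 4 of the 6 control proteins lie near 0.

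The oxLDL effect in LPS-treated PMφs was then measured as oxLDL+LPS against LPS. Here 23 of 28 members had a lower mean with oxLDL, with a median log2 fold change of -0.72 against -0.01 for all 12786 genes tested. Without the block no member and no gene at all was called (percent called 0), and 18 members and 890 genes had an unadjusted p under 0.05. With the block 19 members fell and none rose, where 8.74% of all genes tested fell and 4.42% rose. The groups did not overlap for 16 members, against 12.6% of all genes.

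The calls of the blocked fits with and without LPS had 19 members in common: 95% of the 20 called without LPS and 100% of the 19 called with it. Over all genes the blocked fits called 13.2% with LPS and 4.71% without it, and the calls in common were not counted. Both fits draw on the same pools, so they are not independent although they share no library. Dhcr7 was the member called only without LPS. In LPS-treated PMφs Idi1 was at 725, 320 and 770 without oxLDL and at 233, 174 and 202 with it. All 3 oxLDL+LPS libraries were lower than the LPS libraries, and the log2 fold change was -1.48 (SE 0.33 without the block, adjusted p = 0.70 without and 0.00479 with it). Acat2 (-1.37), Cyp51 (-1.34), Fdps (-1.33), Sc5d (-1.18) and Hsd17b7 (-1.15) came next. Hsd17b7 still overlapped, since LPS replicate 2 (453) equalled oxLDL+LPS replicate 1 (453). Tm7sf2 fell with the block (-0.45) and stood at -0.77 without LPS replicate 2. Not called in either fit were Ebp (-0.23), Lbr (-0.21), Erg28 (-0.20), Dhcr7 (-0.10), Ggps1 (0.01), Scap (0.04), Insig2 (0.02), Mbtps1 (0.02) and Mbtps2 (0.00).

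The size of this effect differed between pools. The median difference over the 28 members was -0.75 for replicate 1, -0.43 for replicate 2 and -1.03 for replicate 3. With the block, leaving out replicate 1 kept 10 calls, leaving out replicate 2 kept 19, and leaving out replicate 3 left none, each in a fit with 4 libraries. Of all genes tested, these fits called 0.579%, 23.9% and 0%, so the fit without replicate 3 called no gene. Idi1 differed by -1.63 in replicate 1 and by -0.88 in replicate 2. Replicate 3 was also the pool with the fewest mesothelial and fibroblast transcripts, and the part of that in the result was not tested. Without LPS the corresponding counts were 16, 18 and 19, beside 1.73%, 1.12% and 10.3% of all genes, and the median differences were -0.65, -0.46 and -0.84.

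Whether oxLDL acted differently with LPS was tested as the interaction over all 12 libraries. No member was called with or without the block, as was no gene of 13482 (percent called 0; 418 genes had an unadjusted p under 0.05 without the block, none of them a member). For Idi1 the difference between the effects was -0.17 with a 95% interval of -0.94 to 0.60 in the blocked fit. For Acat2, the member with the most negative difference, it was -0.54 (-1.31 to 0.22), and for Srebf2 -0.08 (-0.48 to 0.32). Intervals this wide leave room for sizeable differences between the effects in either direction.

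**Figure D2:**
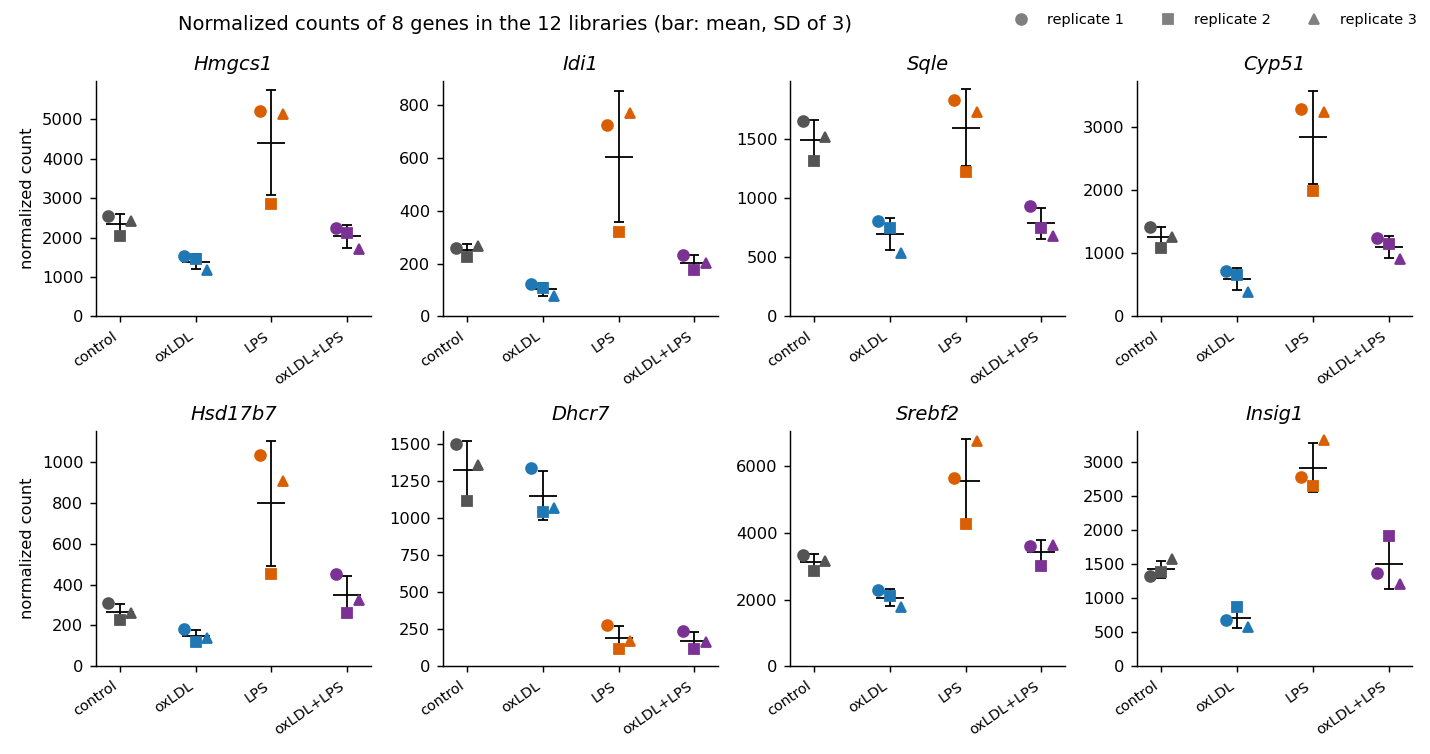
Normalized counts (y axis, from 0) of 8 members in the 12 libraries by group (x axis); symbols mark replicates 1 to 3 and the bars the mean and SD. LPS replicate 2 (orange square) is the lowest LPS library in all 8 panels, every oxLDL library lies below every control library in 7 of them, and Dhcr7 is at 118 to 277 with LPS against 1115 to 1502 in control.

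With LPS by itself, members were called in both directions. In LPS against control, 11 members rose and 2 fell without the block, where 31.4% of all 13023 genes tested rose and 30.3% fell. The share of members that rose (11 of 28) thus lay near that of all genes, and the share that fell (2 of 28) lay below it. With the block 14 rose and 3 fell, against 34.6% and 34.1%. The groups did not overlap for 12 of the 28 members, against 63.2% of all genes. The sums of the normalized counts rose with LPS, and setting all libraries to the same total moved the median of all genes by -0.48, after which 6 members rose and 12 fell, where 17% of all genes rose and 55.3% fell. With quantile normalization, which moved it to -0.14, 9 members rose and 4 fell, where 24.9% of all genes rose and 37% fell. Rises that also passed after the same-total scaling were those of Hsd17b7, Fdft1, Idi1, Cyp51, Insig1 and Srebf2, the last of which was not called with quantile normalization (adjusted p = 0.197).

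Hsd17b7, a reductase in the removal of methyl groups from the sterol ring, rose most. It was at 308, 228 and 259 in control and at 1036, 453 and 907 with LPS. The lowest LPS library was replicate 2 and still lay above all controls, and the log2 fold change was 1.51 (SE 0.30, adjusted p = 0.00352 without and 0.000255 with the block). Fdft1 rose from 690, 503 and 573 to 1597, 989 and 1595 (1.22, adjusted p = 0.00171). The Fdft1 value carries a limit, as 18.3% of its exon bases in GENCODE vM21 are shared with Ctsb, a lysosomal protease gene on the other strand. Idi1 (1.17, adjusted p = 0.0152), Cyp51 (1.15, adjusted p = 0.00212) and Insig1 (1.03, adjusted p = 0.0002) rose about as much.

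Srebf2 itself rose, from 3350, 2844 and 3167 in control to 5655, 4284 and 6779 with LPS (0.81, adjusted p = 0.00429), and to 0.33 (adjusted p = 0.0944) after the same-total scaling. Hmgcs1 (0.87), Fdps (0.83), Lbr (0.68) and Ggps1 (0.61) rose as well but were not called after that scaling, where they stood at 0.39, 0.35, 0.20 and 0.13. Scap rose by 0.38 (adjusted p = 0.0869) and turned to -0.10 under that scaling. With the block alone, Acat2 (0.58), Msmo1 (0.44) and Lss (0.27) rose and Tm7sf2 (-0.39) fell, and the first 3 stood at 0.10, -0.05 and -0.22 after that scaling. Of the other enzymes, Mvk (0.05), Mvd (0.09) and Sqle (0.08) were not called without or with the block, and after the same-total scaling they fell (-0.43, -0.40 and -0.40). Pmvk (0.32), Nsdhl (0.17), Erg28 (-0.11), Insig2 (0.08), Mbtps1 (-0.15), Mbtps2 (-0.08) and Stard4 (-0.08) were not called in either fit.

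Dhcr7 fell with LPS. Its normalized counts were 1502, 1115 and 1359 in control PMφs and 277, 118 and 170 with LPS. The groups were far apart, and the level was 7.39-fold lower with LPS (log2 fold change -2.89, SE 0.29, adjusted p = 0.000101 without the block), with the same direction under both other scalings (-3.37 and -3.01). Per kb of exon it moved from rank 11 of the 28 members in control PMφs to rank 28 with LPS. Ebp, which acts shortly before it, fell by 0.29 on the log2 scale (717, 684 and 711 to 491, 565 and 681, adjusted p = 0.0911 without the block), and its call was lost when any library of this comparison other than LPS replicate 3 was left out (adjusted p 0.151 to 0.216). Ebp stood at -0.78 (adjusted p = 0.000325) after the same-total scaling and at -0.46 (adjusted p = 0.00984) with quantile normalization, both without the block. The median of all genes was -0.48 and -0.14 under these scalings. Sc5d, which acts between Ebp and Dhcr7, was at 0.20 and was not called without or with the block.

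Among the members, LPS after oxLDL gave nearly the same calls as LPS alone. In oxLDL+LPS against oxLDL, 10 members rose and 2 fell without the block, against 28.2% and 26.3% of all 12900 genes tested, and 12 rose and 2 fell with it, against 32% and 31.4%. After the same-total scaling, which moved the median of all genes by -0.40, 6 rose and 12 fell, beside 15.9% and 51.3% of all genes. The groups did not overlap for 13 members, against 57.6% of all genes. Of the 11 members that rose with LPS alone, 10 also rose here (90.9% of the 11 and 100% of the 10), and both falls were shared. Over all genes, LPS alone called 61.7% and LPS after oxLDL 54.5% without the block. How many of those calls were in common was not counted. These fits share no library but draw on the same pools. Fdps was the exception, at 0.50 (adjusted p = 0.102 without and 0.00256 with the block), and Msmo1 (0.27) also rose only with the block and stood at -0.12 after the same-total scaling.

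In this comparison Hsd17b7 went from 182, 117 and 138 to 453, 262 and 325 (1.23, adjusted p = 0.00487) and Insig1 from 682, 862 and 567 to 1364, 1912 and 1210 (1.08, adjusted p = 0.00440). All libraries with LPS were above all those without it for both genes. Dhcr7 went from 1342, 1045 and 1071 to 236, 117 and 165 (-2.78, adjusted p = 0.000105), again with no overlap. Ebp fell by 0.38 on the log2 scale (adjusted p = 0.00952).

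**Figure D3:**
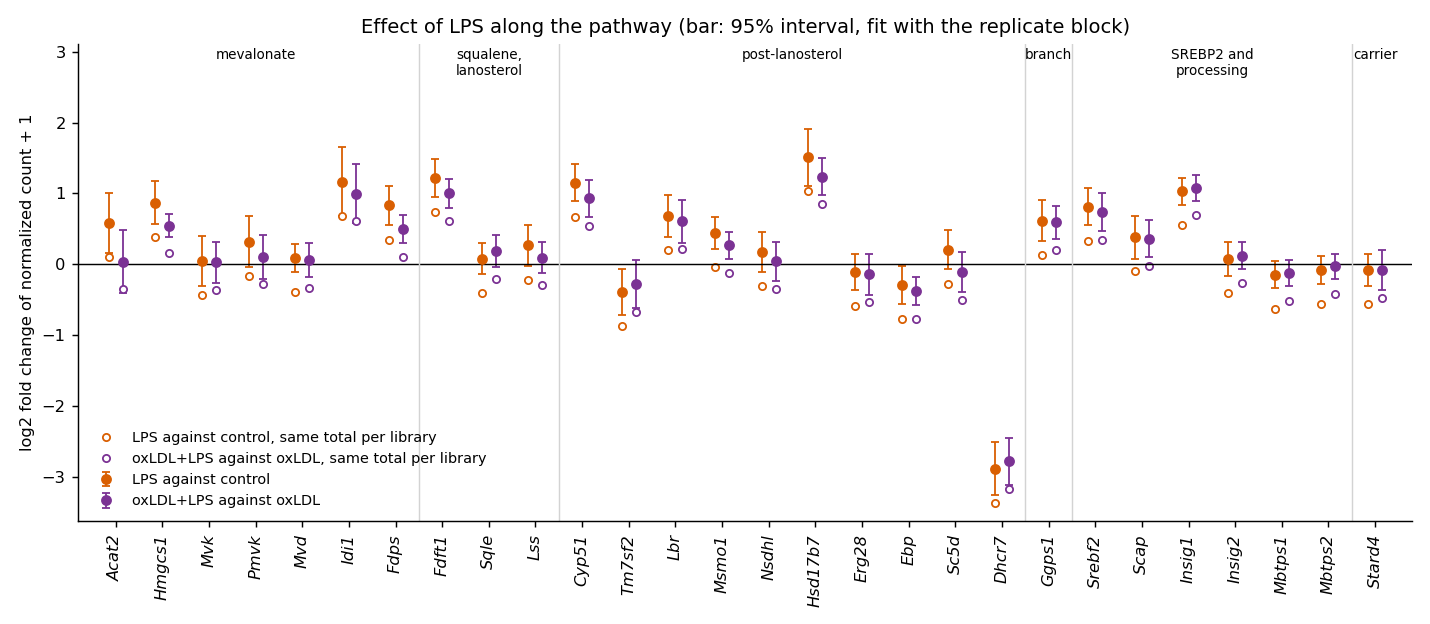
Log2 fold change (y axis) of the 28 genes with LPS in pathway order (x axis), without oxLDL (orange) and after oxLDL (purple); filled points and bars are the estimates and 95% intervals of the fit with the replicate block, open points the estimates after scaling to the same total. Hsd17b7 lies highest (1.51 and 1.23) and Dhcr7 lowest (-2.89 and -2.78), and the open points of several genes, Mvk, Mvd and Sqle among them, lie below 0.

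The order along the route was described by the median of each segment. The segment medians with oxLDL alone were -0.75 for the mevalonate steps, -0.82 for squalene and lanosterol and -0.62 for the steps after lanosterol. In oxLDL+LPS against LPS they were -1.08, -1.01 and -0.63. For LPS against control they were 0.58, 0.27 and 0.19 and for oxLDL+LPS against oxLDL 0.10, 0.19 and -0.04. After the same-total scaling the LPS medians were 0.10, -0.22 and -0.29 and, after oxLDL, -0.28, -0.20 and -0.42, so 4 of the 6 turned sign. Within a segment the enzymes could differ far more than these medians, from -2.89 (Dhcr7) to 1.51 (Hsd17b7) after lanosterol with LPS alone. They could also differ less, as the squalene and lanosterol enzymes in oxLDL+LPS against LPS ran only from -1.04 to -0.89. No difference between segments was tested.

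The per-library medians showed how far the replicates spread. Relative to the control mean, the median of the 20 enzymes was 0.13, -0.18 and 0.04 in the control libraries and -0.58, -0.70 and -0.87 with oxLDL. It was 0.57, -0.11 and 0.48 with LPS and -0.35, -0.51 and -0.66 with oxLDL+LPS. LPS replicates 1 and 3 thus lay above every control library, whereas LPS replicate 2 lay among them, and all oxLDL+LPS libraries lay below control. Without LPS replicate 2, 16 members rose and 1 fell against control, in place of 11 and 2, and 28.9% of all genes rose and 29.8% fell. The members called only without that library were Acat2 (0.94 in place of 0.58), Pmvk (0.59 in place of 0.32), Lss (0.48 in place of 0.27), Msmo1 (0.66 in place of 0.44), Nsdhl (0.31 in place of 0.17) and Sc5d (0.42 in place of 0.20). Scap (0.29) and Ebp (-0.28) were no longer called. Tm7sf2 moved from -0.39 to -0.07 and Stard4 from -0.08 to 0.10, and neither was called in the fit without the block with or without that library.

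**Figure D4:**
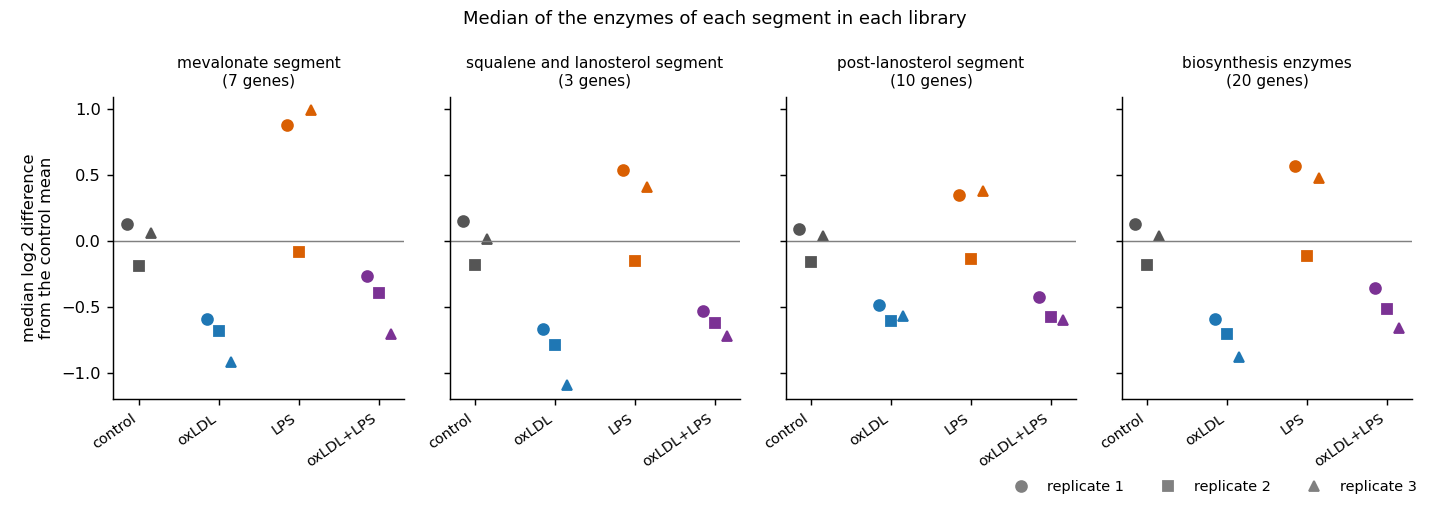
Median log2 difference from the control mean (y axis) over the enzymes of each segment in each of the 12 libraries, by group (x axis); symbols mark replicates 1 to 3. For all 20 enzymes the oxLDL libraries sit between -0.87 and -0.58, and LPS replicate 2 (-0.11) sits apart from LPS replicates 1 and 3 (0.57 and 0.48).

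Genes that neighbour the route were described from further lists. Fatty acid synthesis genes, driven mainly by the related factor SREBP1, were also lower with oxLDL. With the block 8 of 12 fell and none rose (median -0.34), beside 2.92% and 1.8% of all genes, and no gene was called without it. Scd2 (-1.17), Scd1 (-1.08) and Fasn (-1.07) changed most, while Srebf1 was at -0.15 and was not called. In oxLDL+LPS against LPS, 7 of the 12 fell and 2 rose with the block, beside 8.74% and 4.42% of all genes. Fasn was there at 1538, 829 and 1089 without oxLDL and at 550, 520 and 327 with it (-1.30, adjusted p with the block 0.00614). With LPS alone 2 of the 12 rose and 3 fell without the block, beside 31.4% and 30.3% of all genes, and Fads1 (-1.57) had the lowest p. After the same-total scaling none rose and 6 fell, beside 17% and 55.3% of all genes. Over the 12 libraries, Fasn (r = 0.92), Aacs (r = 0.92) and Scd1 (r = 0.85) were among the 10 genes outside the members most like the mean of the 20 enzymes. The same 10 also held C1qa (r = 0.89), Nckap1l (r = 0.86), Pja2 (r = 0.85), Tln1 (r = 0.82) and Rap1gap2 (r = 0.81), which are in none of the lists used here. This is a description over libraries that share treatments and pools.

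Of 8 genes of oxysterol and LXR control, 2 were called with oxLDL alone. With the block, Mylip, which encodes the ligase that degrades LDL receptor family members, rose by 0.58 (adjusted p 0.0311). The exporter gene Abcg1 rose by 0.22 (adjusted p 0.0390), and none fell, beside 1.8% of all genes that rose and 2.92% that fell. Both overlapped between the groups. Mylip was at 516, 306 and 437 in control and at 601, 420 and 919 with oxLDL, with the largest change in replicate 3. Abcg1 was at 6382, 5618 and 5773 in control and at 7123, 6374 and 7163 with oxLDL. Abca1, the other exporter gene of the list, was at 0.20 and was not called. With LPS, 5 of the 8 rose and 2 fell without the block, beside 31.4% and 30.3% of all genes. After the same-total scaling 3 rose and 2 fell, beside 17% and 55.3%. Ch25h, which makes an oxysterol that retains SREBP2, was at 16, 17 and 2 in control and at 1190, 1417 and 1253 with LPS (7.05, adjusted p = 6e-05), Abca1 rose by 1.88 and Abcg1 fell by 1.33. In oxLDL+LPS Ch25h was at 226, 1043 and 224, so replicate 2 stood near the LPS libraries and the others did not (-1.77, adjusted p = 0.70 without and 0.0144 with the block).

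The counts of the lists with LPS are read beside the 31.4% of all genes that rose and the 30.3% that fell. After the same-total scaling these shares were 17% and 55.3%. Counts with oxLDL alone and the block are read beside 1.8% that rose and 2.92% that fell. Of 11 sterol transport and esterification genes tested, 5 rose and 5 fell with LPS without the block, and 2 rose and 6 fell after the same-total scaling. Soat1, the enzyme that esterifies cholesterol in macrophages, was at 18788, 20736 and 19098 in control and at 5248, 5636 and 4546 with LPS (-1.93), and Nceh1, which frees cholesterol from esters, fell by 2.24 on the log2 scale. With oxLDL alone 1 of the 11, Tmem97, fell with the block (-0.41, adjusted p 0.0163). Among 11 genes of sterol-dependent control in the endoplasmic reticulum, 6 rose with LPS and none fell, led by the ligase genes Rnf145 (1.72) and Rnf139 (1.33), and after the same-total scaling both stayed above 0 (1.24 and 0.85), while over the list 3 rose and 5 fell. With oxLDL alone 1 of the 11 fell with the block, again Rnf145 (-0.26, adjusted p 0.0352).

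The branches from mevalonate to other isoprenoids showed no call with oxLDL among 13 genes in either fit. With LPS, 5 of the 13 rose and 2 fell without the block, led by Pdss1 of ubiquinone synthesis (1.91), and after the same-total scaling 1 rose and 9 fell. Of 5 lipoprotein uptake genes none was called with oxLDL alone. With LPS the large scavenger and lipoprotein receptor gene Lrp1 (-1.17) and Scarb1 (-0.84) fell without the block. In oxLDL+LPS against LPS, Lrp8 rose with the block (1.18, adjusted p 0.0747) and none of the 5 fell, beside 4.42% of all genes that rose and 8.74% that fell. Lrp8 was low, at 89, 38 and 32 with LPS and at 222, 37 and 158 with oxLDL+LPS. The groups overlapped, and replicate 2 showed no rise. The Lrp8 call was lost with the block and the same-total scaling (adjusted p 0.106).

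For 11 of the 28 members some exon bases are also annotated to another gene in GENCODE vM21. The share ran from 3.53% of the bases (Lss) to 28.4% (Mbtps2, shared with Yy2 on the same strand). The authors counted with an older GENCODE release, which was not searched, so the overlaps met in the counting may differ. The strand setting of the counting is not given in the sources used here. Fdps shares 26.7% of its exon bases with the model Gm43738 and Tm7sf2 shares 12.1% with Vps51, both on the same strand. If the counting used the same models, the values of Fdps and Tm7sf2 are the least certain of the set together with those of Mbtps2 and Fdft1.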

How the data were processed

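Poly(A) RNA of 12 PMφ samples (4 groups of 3) was made into directional libraries and sequenced by the authors, who trimmed reads with Trimmomatic 0.32, aligned them with STAR 2.5.1b to mm10 (GRCm38) and counted them with featureCounts. The deposited table holds a score per gene symbol and library, namely counts scaled by a library-specific factor and then rounded to whole numbers, a step recognised from the spacing of the values (factors 0.708 to 1.31, recovered on simulated data). Reads could not be restored exactly where the factor exceeds 1, so no count model was run; the authors tested with DESeq2 at an adjusted p under 0.1, and that threshold was kept.

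Values were analysed as log2(value + 1) with limma 3.58.1 in R 4.3.3 (eBayes with a variance trend), after keeping genes that reached 10 in 3 or more of the compared libraries, with Benjamini-Hochberg adjustment over all genes tested. Pairwise fits used 6 libraries and the interaction 12. The fit was tested on simulated data. Alternatives were the replicate block, filters, pseudocount 5, same-total and quantile scaling, no variance trend, all 12 libraries and each library left out. Blocked fits with another scaling were added after seeing the data.

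Replicate numbers were taken to pair the libraries, which the labels do not state. According to the methods each pool was divided among the 4 groups. Deviations from the group means correlated between same-numbered libraries (r 0.33 to 0.73 over 11186 genes), each library most with its own number.

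The 28 members and all further lists were chosen with earlier results of these data known. All members are named; from each further list up to 4 called genes per comparison, taken by p, plus Ch25h, Abca1, Abcg1, Mylip and Srebf1, and genes among the 10 most like the enzymes. Results of 1 gene of the uptake list are not reported here. Gene symbols turned into dates (25) hold at most 0.165% of a library and 18273 symbols are at 0 throughout. Depth limits low genes, and intervals cover the spread between 3 libraries only.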

Additional observations from a re-analysis of the deposited data

How the results depend on the processing

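The replicate block, which pairs libraries taken to be of the same pool, decided the oxLDL results. For oxLDL against control 0 members were called without it and 20 with it, beside 0% and 4.71% of all genes. For oxLDL+LPS against LPS these were 0 and 19, beside 0% and 13.2%. With the block and same-total scaling the counts for the same comparisons were 20 and 17, beside 5.56% and 12.3% of all genes. With the block and quantile normalization they were 19 and 17, beside 3.31% and 7.71%. With the block and 1 replicate number left out, the counts for oxLDL against control ran from 16 to 19, beside 1.12% to 10.3% of all genes. For oxLDL+LPS against LPS they ran from 0 (without replicate 3) over 10 (without replicate 1) to 19. There the fit without replicate 3 called no gene at all, and those without replicates 1 and 2 called 0.579% and 23.9% of all genes. Without the block, using all 12 libraries called 8 for oxLDL+LPS against LPS, beside 0.227% of all genes. Leaving out single libraries gave 0 to 2, the 2 without oxLDL+LPS replicate 2, where 0.721% of all genes were called. Over the members called with the block, the adjusted p in blocked fits with all libraries ran from 0.000127 to 0.134 for oxLDL against control and from 0.00347 to 0.165 for oxLDL+LPS against LPS, and without the block and with no library left out from 0.232 to 1 and from 0.0989 to 0.806. Blocked fits with a number left out have 1 residual degree of freedom and take the spread almost wholly from all genes.

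The LPS counts depended on scaling. With the block, same-total scaling called 21 members for LPS against control (8 higher, 13 lower), beside 18.2% and 59.7% of all genes. For oxLDL+LPS against oxLDL it called 22 (7 higher, 15 lower), beside 17.8% and 57.6%. Quantile normalization with the block called 20 for LPS against control (12 higher, 8 lower), beside 28.1% and 40.8%. Without the block, same-total scaling called 18 in each comparison, 6 higher and 12 lower. Of all genes, 17% were higher and 55.3% lower there for LPS against control, and 15.9% and 51.3% for oxLDL+LPS against oxLDL. For LPS against control, same-total scaling gave 10 members the other sign, namely Mvk (-0.43), Pmvk (-0.16), Mvd (-0.40), Sqle (-0.40), Lss (-0.22), Msmo1 (-0.05), Nsdhl (-0.31), Sc5d (-0.28), Scap (-0.10) and Insig2 (-0.41), and quantile normalization 5, namely Mvd (-0.13), Sqle (-0.27), Msmo1 (-0.06), Sc5d (-0.22) and Insig2 (-0.06). For oxLDL+LPS against oxLDL, these were 10 with same-total scaling, namely Acat2 (-0.35), Mvk (-0.36), Pmvk (-0.28), Mvd (-0.33), Sqle (-0.20), Lss (-0.30), Msmo1 (-0.12), Nsdhl (-0.35), Scap (-0.030) and Insig2 (-0.27), and 2 with quantile normalization, Mvd (-0.063) and Insig2 (-0.0080). The libraries differ in total with LPS, so a change in RNA content and a change in scaling cannot be told apart here. The interaction had 0 members called in every setting run, also with the block within each LPS state, where 147 genes were called. Groups of 3 libraries limit the precision of every value.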
